A study of Mus musculus with 8 samples.

Results

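The 36 genes described here encode proteins that license replication origins, fire them and copy DNA at the fork, together with the timing regulator Rif1. They are a fixed list of gene symbols, chosen without a timing value in the rule, out of 21078 protein-coding genes with a timing score. By role, 15 act in licensing (Orc1 to Orc6, Cdc6, Cdt1, Gmnn and Mcm2 to Mcm7), 12 in firing (Cdc7, Dbf4, Ticrr, Mtbp, Recql4, Topbp1, Cdc45, Gins1 to Gins4 and Mcm10) and 8 at the fork (Pcna, Fen1, Timeless, Tipin, Wdhd1, Rpa1, Rpa2 and Lig1). What was measured is when the DNA of each gene is copied, not how much of its RNA or protein the cells make.

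The cells were mouse embryonic stem cells of the E14Tg2a line (XY, 129/Ola background), kept in serum with leukemia inhibitory factor and carrying an auxin-inducible degron on CTCF, the protein that binds insulators and anchors chromatin loops. The auxin group was given 500 µM of indole-3-acetic acid, an auxin, for 2 days, and the control group of degron cells none. CTCF protein itself was not measured in these files. Each group has 4 libraries, which make 2 profiles: per replicate, BrdU-labelled DNA (2-hour pulse) from early and from late S phase was joined. No cells without the degron were given auxin among the samples used here, so effects of auxin and of CTCF loss cannot be told apart. The labels do not say whether replicates were separate cultures or clones, so p-values rest on a spread between profiles that may be only technical. No expression was measured, so the cell type could not be checked against marker RNAs.

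Scores stand on a 6-kb grid of mm10 (316864 windows a profile), with earlier replication at higher values. Their log base is unknown, so values are in score units, against a genome-wide SD of 2.10 over windows. The authors quantile normalized the 4 profiles, so a shift of the whole genome cannot be seen. Depth is unknown, because the files hold no read counts. A gene's score is the mean of the windows over its gene body. Of the 36 genes, 28 had at least 3 windows, 7 had 1 or 2, and Cdt1, with none, took the value of the nearest window, 16 bp away. Neighbouring windows are not independent measurements.

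Origins are licensed in G1, when the origin recognition complex (ORC), Cdc6 and Cdt1 load the ring of Mcm2 to Mcm7 onto DNA, while geminin, the product of Gmnn, blocks reloading by holding Cdt1. In S phase the Cdc7-Dbf4 kinase phosphorylates the loaded ring, and cyclin-dependent kinase drives Ticrr, Mtbp and Topbp1 to help recruit Cdc45 and GINS, which turn it into the active helicase. Rif1 brings protein phosphatase 1 to late origins, where it opposes Cdc7, and its loss disturbs the timing program in embryonic stem cells.

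In control cells the replication genes mostly replicated early. With a score above 0.5 called early and below -0.5 late, 33 of the 36 genes (91.7%) were early in control, against 67.4% of all protein-coding genes, 2 were middle (Cdc7 and Lig1) and 1 was late (Orc4). The mean control score ran from -2.25 at Orc4 to 3.56 at Cdc6. The middle member of the list lay near the middle of all genes, with a median percentile of 55.6, because early scores are common among genes. The role groups stood in the same order in all 4 profiles. The licensing median was 1.50 and 1.91 in control replicates 1 and 2 and 1.81 and 1.67 in auxin replicates 1 and 2. The firing median was 2.58 and 2.47 in control and 2.36 and 2.42 with auxin. The fork median was highest, at 2.90 and 3.00 in control and 2.83 and 3.05 with auxin. Over all protein-coding genes the median was 1.88 and 1.89 in control and 1.83 and 1.85 with auxin. The licensing median was below it in all profiles but control replicate 2, and the firing and fork medians were above it. Licensing lay below firing and firing below fork in 4 of 4 profiles also for the genes with at least 3 windows, and for scores averaged over 100 kb around each gene. The ranges overlapped widely, genes are not replicates, and no test was made of the order.

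**Figure D1:**
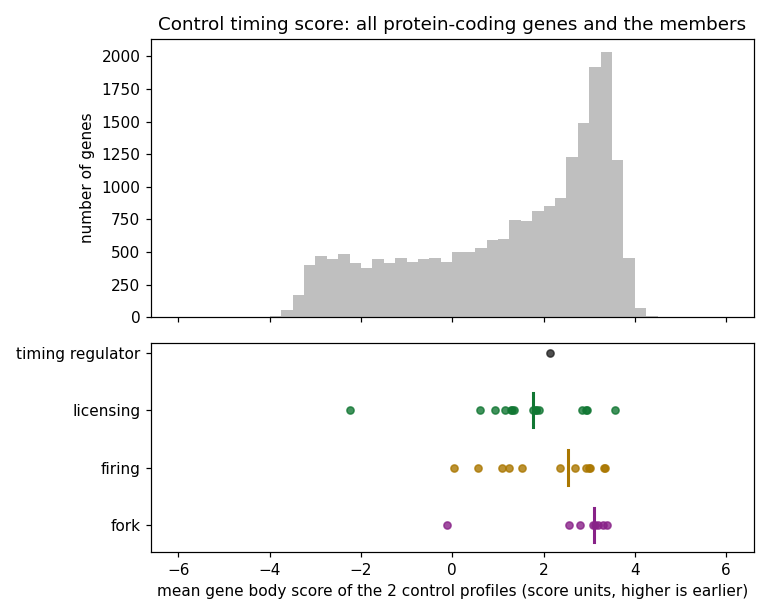
The upper panel is a histogram of the mean control score of all protein-coding genes (score units, mean over the gene body), and the lower panel shows the same score for each of the 36 genes by role, with a bar at each group's median. Most members lie above 0.5, Orc4 stands alone at -2.25, and Lig1 at -0.12 stands apart from the other fork genes.

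The comparison of auxin with control asks whether the timing of these genes differed in degron cells given auxin. No member passed an adjusted p of 0.05 in limma fitted over all 21078 gene bodies, in which 0% of genes were called (0 genes; 3610 genes had an unadjusted p under 0.05). At that unadjusted level stood 6 of the 36 members (16.7%), a share near the 17.1% of all genes. A difference of 0.5 or more in size was found at 8 members (22.2%) and at 22.2% of all genes. Both auxin profiles lay below both control profiles at 10 members, against a background of 25.9% of genes, and above both at 8 members, against 23.9%. At the other 18 members the groups overlapped. With 2 profiles a group, an exact permutation test of a single gene cannot give a two-sided p below 0.333, so none was made.

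A second fit used a span of the same width for every gene: the mean of windows within 50 kb of the gene's midpoint, called the locus here. It called 0 of the 36 members, in a background of 478 of 20367 loci (2.35%, with 1.53% later and 0.815% earlier). Unadjusted, 7 members (19.4%) had p under 0.05, against 22.2% of loci. Both auxin profiles lay below both controls at 11 member loci and above them at 9, against 27.4% and 25.7% of all loci.

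Calls at the locus depended on the variance model, the span and the control profiles. With a trended, robust variance in limma, 5 members were called later and 1 earlier at the locus, against 7.86% and 5.5% of loci in those directions. The 5 were Rif1, Gmnn, Mcm2, Mcm3 and Gins4, and the earlier gene was Cdc7. With the span widened to 100 kb on each side, 5 members were called, all later (Rif1, Gmnn, Mcm2, Gins4 and Fen1), against 6.79% of loci called later and 4.81% earlier. Of gene bodies, the trended, robust fit called Gmnn alone, in a background of 5.3% (3.3% later and 2.01% earlier). With a replicate block in limma, Gmnn was called at the locus in a background of 5.1%. Without control replicate 1, which leaves a single control profile, the locus difference was -1.07 at Gmnn and -0.77 at Gins4. Without control replicate 2 it was -0.75 at Mcm2, -0.76 at Fen1 and 0.91 at Timeless, so Timeless was earlier with auxin there. Leaving out single profiles moved the Timeless locus difference between -0.12 and 0.91.

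**Figure D2:**
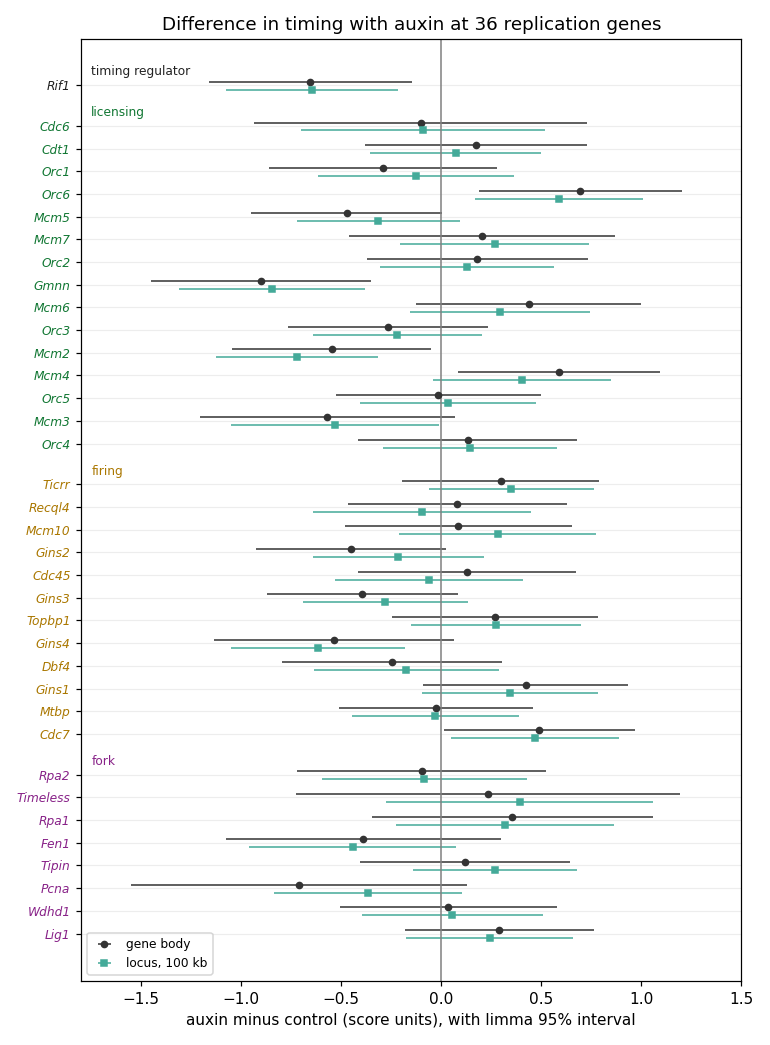
Auxin minus control (score units) at each of the 36 genes, for the gene body (circles) and for the 100-kb locus (squares), with the unadjusted 95% interval from limma; genes are ordered by role and by control score. The gene body interval lies below 0 for Rif1, Gmnn and Mcm2 and above 0 for Orc6, Mcm4 and Cdc7, and none of these differences passed after adjustment.

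Rif1 (chromosome 2, 52072815 to 52126769; 10 windows) scored 2.04 and 2.23 in the control profiles and 1.36 and 1.60 with auxin. Both auxin values were lower than both control values. The difference was -0.66 ± 0.21 (SE, 2 profiles a group; limma adjusted p = 0.218), with a 95% interval from -1.16 to -0.15. At the locus it was -0.65 ± 0.19 (limma adjusted p = 0.0969). Leaving out any single profile kept the gene body difference between -0.78 and -0.54. The stretch of windows over Rif1 in which both auxin profiles lay below both controls was 168 kb long, from -43.8 kb to 124 kb relative to the gene's midpoint, with a mean difference of -0.69. The control score peaked near the gene, at 2.23, and its lowest value within 500 kb was -2.02, at -467 kb, so Rif1 lies at the top of an early stretch. All 4 other protein-coding genes within 250 kb also scored lower with auxin. Such counts, here and below, are of neighbours that can share windows, and no share over all genes stands beside them.

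Among the licensing genes, geminin's gene differed most. Gmnn (chromosome 13, 24751845 to 24761937; 2 windows) scored 1.54 and 1.99 in control and 0.89 and 0.84 with auxin. The auxin values were lower and closer together. The difference was -0.90 ± 0.23 (SE; limma adjusted p = 0.175, 95% interval from -1.45 to -0.35), and -0.85 ± 0.21 at the locus (limma adjusted p = 0.0589). It lay between -1.13 and -0.68 when single profiles were left out. The run of windows with both auxin profiles below both controls was 534 kb long and reached from -115 kb to 419 kb relative to the midpoint. Its mean difference was -0.69, and the largest single window, 110 kb from the midpoint, differed by -1.11. All 10 protein-coding genes within 250 kb scored lower with auxin.

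The wide range in timing of the ORC genes came mainly from Orc4. Orc4 (chromosome 2, 48902824 to 48952902) was the only late member, at -2.47 and -2.02 in control and -2.12 and -2.11 with auxin. The other ORC genes had control means from 0.94 at Orc5 to 2.93 at Orc1. Within 500 kb of Orc4, 69.9% of windows were late in control and 21.1% early, so the gene shares its timing with a wide late stretch. The groups overlapped at Orc4 (difference of 0.13, 95% interval from -0.42 to 0.68). Rif1 lies 3120 kb from Orc4 on the same chromosome, and no pair of members lay within 1 Mb of each other.

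Orc6, the gene of the smallest and most loosely bound ORC subunit (chromosome 8, 85299632 to 85308279; 3 windows), scored 2.97 and 2.70 in control and 3.61 and 3.46 with auxin. Both auxin values were higher, with a difference of 0.70 ± 0.21 (SE; limma adjusted p = 0.207, 95% interval from 0.19 to 1.20). At the locus the difference was 0.59 ± 0.19 (limma adjusted p = 0.112), in a run of 108 kb, and 11 of 15 neighbouring genes within 250 kb were also higher. Orc3 had both auxin values (1.16 and 0.90) below both control values (1.33 and 1.26). Orc1, Orc2 and Orc5 overlapped between groups, with differences of -0.29, 0.18 and -0.015.

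Cdc6, the ATPase that joins ORC to load the helicase, scored 3.03 and 4.10 in control and 3.44 and 3.48 with auxin, so both auxin values fell between the controls. Cdt1, its partner in loading, scored 2.83 and 3.07 in control and 2.92 and 3.32 with auxin. Neither gene kept the groups apart.

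The genes of the 6 ring subunits, which act as a single hexamer, did not share a direction. Mcm2, Mcm3 and Mcm5 scored lower with auxin, Mcm4 and Mcm6 higher, all without overlap, and Mcm7 overlapped, as did 50.2% of all genes. Mcm2 (chromosome 6, 88883474 to 88898780) scored 1.24 and 1.32 in control and 0.86 and 0.60 with auxin. Its difference was -0.55 ± 0.21 over the gene body (SE; limma adjusted p = 0.265) and -0.72 ± 0.18 at the locus (limma adjusted p = 0.0634). The run over Mcm2 was 366 kb long with a mean difference of -0.59, and all 4 genes within 250 kb scored lower.

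Mcm3 (chromosome 1, 20802966 to 20820312), the lowest-scoring gene of the ring, stood at 0.87 and 0.36 in control and 0.27 and -0.18 with auxin. By the 0.5 limit the mean of Cdc7, a firing gene, moved from middle to early (0.038 to 0.53). That of Mcm3 moved from early to middle, though control replicate 2 of Mcm3 was already middle. Its difference was -0.57 ± 0.27 (SE; limma adjusted p = 0.33), and the gap between replicates was nearly as large. It was -0.32 without control replicate 1 and -0.35 without auxin replicate 2. Mcm4 (chromosome 16, 15623897 to 15637400) went the other way, from 1.29 and 1.02 in control to 1.81 and 1.67 with auxin, with a difference of 0.59 ± 0.21 (SE; limma adjusted p = 0.247). Mcm5 scored 1.89 and 1.91 against 1.35 and 1.50 with auxin, and Mcm6 1.11 and 1.59 against 1.82 and 1.76. Mcm7, at 1.50 and 2.18 in control and 1.90 and 2.19 with auxin, differed by 0.20. Over the 6 genes the median difference was -0.13, and the range from -0.57 to 0.59 spanned 0.

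**Figure D3:**
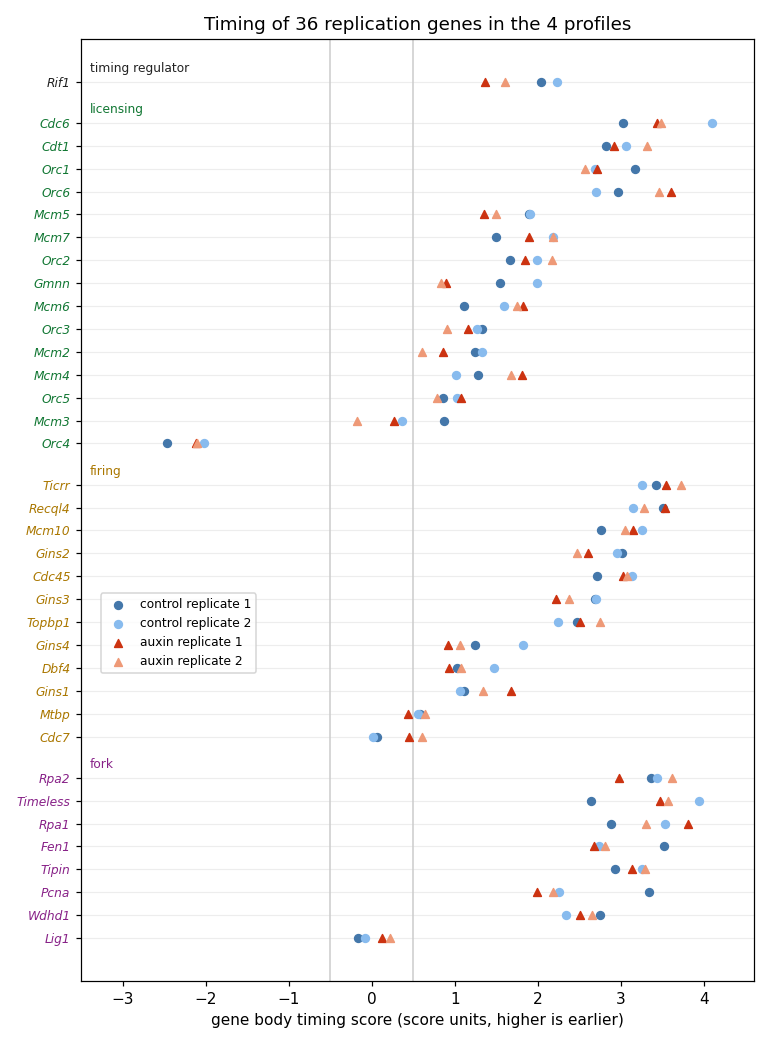
Gene body timing score (score units, higher is earlier) of the 36 genes in each of the 4 profiles, circles for control and triangles for auxin, ordered by role and control score; grey lines mark the limits of early and late at 0.5 and -0.5. At Gmnn and Rif1 both triangles lie left of both circles, at Orc6, Mcm4 and Cdc7 right of them, and Cdc6, Timeless and Pcna show control replicates more than 1 unit apart.

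Many of these genes are known targets of E2F, the factor that switches on S-phase genes. The 250 bases before the start site are shown for an MCM gene that scored higher with auxin, a GINS gene that scored lower and the ORC gene with the largest positive difference. They are in lower case, from RefSeq (GRCm38.p6, the coordinates of mm10), and capitals mark matches on either strand to the E2F motifs TTTCGCGC, TTTGGCGC, TTTCCCGC and TTTGCCGC.
Mcm6 (chr1:128359706-128359955, minus strand): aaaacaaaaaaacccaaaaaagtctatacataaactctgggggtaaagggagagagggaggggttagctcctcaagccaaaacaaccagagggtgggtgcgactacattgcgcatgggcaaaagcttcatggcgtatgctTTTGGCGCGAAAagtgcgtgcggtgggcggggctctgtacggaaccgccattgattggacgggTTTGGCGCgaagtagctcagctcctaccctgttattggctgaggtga
Gins3 (chr8:95633309-95633558, plus strand): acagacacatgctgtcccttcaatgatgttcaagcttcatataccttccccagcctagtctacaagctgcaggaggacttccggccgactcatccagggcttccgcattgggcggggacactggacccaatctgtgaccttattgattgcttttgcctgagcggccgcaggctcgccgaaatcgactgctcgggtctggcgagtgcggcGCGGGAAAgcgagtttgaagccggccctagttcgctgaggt
Orc6 (chr8:85299382-85299631, plus strand): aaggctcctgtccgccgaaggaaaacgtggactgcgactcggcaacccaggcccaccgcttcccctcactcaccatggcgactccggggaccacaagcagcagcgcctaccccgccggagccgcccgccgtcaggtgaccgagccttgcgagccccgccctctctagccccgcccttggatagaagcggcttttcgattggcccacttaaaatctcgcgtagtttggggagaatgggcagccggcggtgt
The Mcm6 promoter holds 3 matches, starting 110, 106 and 47 bases before the start site, of which the first 2 overlap. The Gins3 promoter holds 1 match, at 41 bases, and that of Orc6 holds none. Promoters were found for 27 of the 36 genes, and 8 of them (29.6%) held an E2F match: Cdc6, Orc1, Orc3, Mcm5, Mcm6, Mcm7, Gins3 and Topbp1. Each gene was given 1 start site, which at some genes lies inside the gene's coordinates. The Orc1 promoter, for example, spans 108579204 to 108579453, while the gene, on the plus strand, starts at 108575705. Of 17492 protein-coding genes with a promoter, 2.41% held such a match. These 8 had gene body differences of either sign, and none passed after adjustment. Some turned sign when single profiles were left out (Cdc6 from -0.64 to 0.44, Mcm7 from -0.14 to 0.54). Whether a match goes with the direction of the difference was not tested. The core motif of CTCF, on either strand, matched in 0 of the 27 promoters and in 0.520% of all. This says only that these letters are not in these windows.

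In the firing group, the kinase pair split. Cdc7 (chromosome 5, 106964315 to 106984440), the catalytic subunit, had the lowest control score of the group, 0.066 and 0.010, and scored 0.45 and 0.61 with auxin. The auxin values were higher by 0.49 ± 0.20 (SE; limma adjusted p = 0.285, 95% interval from 0.012 to 0.97). At the locus the difference was 0.47 ± 0.19 (limma adjusted p = 0.185), over a run of 102 kb. Dbf4, which activates Cdc7, scored 1.03 and 1.47 in control and 0.93 and 1.08 with auxin, and the groups overlapped.

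The scaffold genes were early or close to the limit of early. Ticrr, which encodes treslin, had the highest mean control score of the group over the gene body, just above Recql4 (3.35 against 3.33), with 3.43 and 3.26 in control and 3.55 and 3.73 with auxin, a difference of 0.30 without overlap. Its partner gene Mtbp was among the lowest, with 0.58 and 0.56 in control and 0.44 and 0.65 with auxin, and differed by -0.026 (95% interval from -0.51 to 0.46). Recql4, a helicase gene, scored 3.51 and 3.15 against 3.54 and 3.29 and was higher than Ticrr at the locus in control (3.47 against 3.30), and Mcm10 2.77 and 3.26 against 3.15 and 3.05. Cdc45, the gene of the helicase cofactor, overlapped likewise, with control values of 2.71 and 3.14 and auxin values of 3.03 and 3.08.

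Topbp1 (chromosome 9, 103305167 to 103350428) was the only member within 250 kb of a region in the authors' deposited lists, which were chosen on these same profiles. Its gene body scored 2.47 and 2.25 in control and 2.50 and 2.75 with auxin, a difference of 0.27 ± 0.22 (SE; limma adjusted p = 0.552). The gene lies at the edge of a longer stretch. From its midpoint, both auxin profiles stayed above both controls for 604 kb toward higher coordinates, with a mean difference of 0.92 and a largest of 1.22 at 211 kb. The late-to-early region of the authors' deposited table begins 150 kb from the gene (103500000 to 103632000) and has mean scores of 0.50 in control and 1.68 with auxin there.

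The 4 GINS genes, whose products form a single tetramer, lie at separate loci. None of the 4 overlapped between groups, where 50.2% of all genes did. Gins1 scored 1.11 and 1.06 in control and 1.67 and 1.34 with auxin, a difference of 0.42 ± 0.22 (SE; limma adjusted p = 0.365) that was 0.25 without auxin replicate 1. Gins2 scored 3.02 and 2.96 against 2.60 and 2.47 with auxin, and Gins3 2.70 and 2.70 against 2.22 and 2.38. These differ by -0.45 and -0.40. Gins4 (chromosome 8, 23226610 to 23237668; 2 windows) scored 1.25 and 1.82 in control and 0.92 and 1.07 with auxin. Its difference was -0.54 ± 0.25 over the gene body (SE; limma adjusted p = 0.331) and -0.61 ± 0.19 at the locus (limma adjusted p = 0.11), in a run of 312 kb. Without control replicate 2 the gene body difference was -0.25, and without control replicate 1 it was -0.82. Thus 3 of the 4 scored lower and 1 higher.

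**Figure D4:**
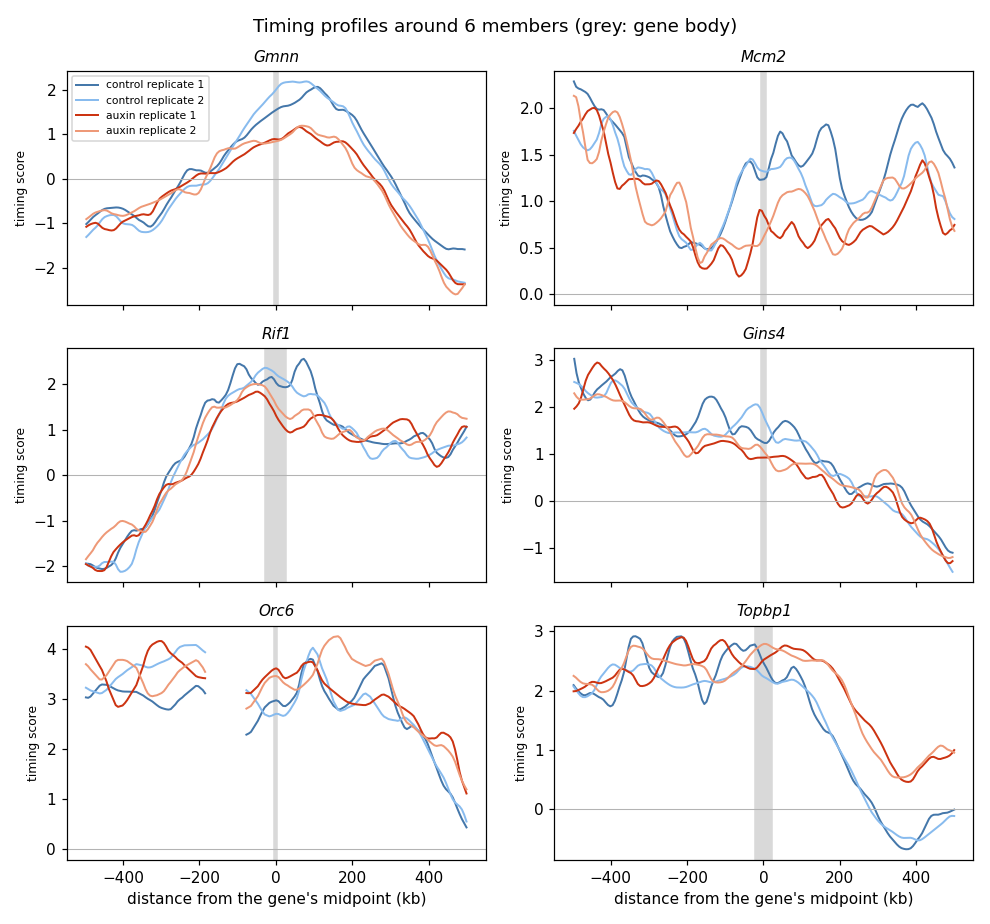
Timing score (score units) against distance from the gene's midpoint (kb) for 6 members, with a line for each of the 4 profiles and the gene body in grey; lines break where windows are missing. At Gmnn, Mcm2, Rif1 and Gins4 the auxin lines run below the controls over the gene and its surroundings, at Orc6 above them over the gene, and at Topbp1 above them from the gene toward higher coordinates.

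Of the 8 fork genes, 7 were early, with control means from 2.55 to 3.40, and 6 of the 8 overlapped between groups, against 50.2% of all genes. At the locus Pcna and Fen1 lay lower and Tipin and Lig1 higher without overlap, so 4 of the 8 overlapped there. Pcna, the gene of the sliding clamp (chromosome 2, 132249286 to 132253180; 2 windows), scored 3.34 and 2.26 in control and 1.99 and 2.19 with auxin. Its difference of -0.71 ± 0.36 (SE; limma adjusted p = 0.351) rested on control replicate 1, without which it was -0.17. The locus difference was -0.37 ± 0.21 (limma adjusted p = 0.334). The 2 genes of Okazaki fragment maturation differed from each other in timing. Fen1, a flap endonuclease gene, was early, with 3.52 and 2.74 in control and 2.68 and 2.81 with auxin, and overlapped. Its difference of -0.39 was -0.0020 without control replicate 1. Lig1, the gene of DNA ligase I (chromosome 7, 13277175 to 13311426), was middle, with -0.16 and -0.079 in control and 0.12 and 0.22 with auxin. Its auxin values were higher by 0.29 ± 0.20 (SE; limma adjusted p = 0.488), in a run of 78 kb. Within 500 kb of Lig1 the control score went from -3.02 to 3.69, so the gene lies between an early and a late stretch.

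The fork protection pair, Timeless and Tipin, was early and overlapped. Timeless scored 2.64 and 3.94 in control and 3.47 and 3.58 with auxin, the widest replicate gap of the list (1.31). Tipin scored 2.93 and 3.26 against 3.13 and 3.30. The single-strand binding protein genes Rpa1 (2.88 and 3.53 against 3.81 and 3.31) and Rpa2 (3.36 and 3.43 against 2.98 and 3.62) overlapped too. So did Wdhd1, which links the helicase to polymerase alpha, at 2.75 and 2.34 against 2.51 and 2.65. The limma 95% intervals of these genes still allow differences of about 0.5 or more in either direction at Rpa2 (-0.72 to 0.53), Timeless (-0.72 to 1.19) and Wdhd1 (-0.51 to 0.58).

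By role, the median difference was -0.015 for licensing, 0.083 for firing and 0.078 for fork, against -0.00049 over all genes. In licensing 5 of 15 genes lay lower and 3 higher without overlap, in firing 3 and 4 of 12, and at the fork 1 and 1 of 8, beside 25.9% lower and 23.9% higher of all genes. All 3 medians turned sign under some setting: licensing to 0.033 and firing to -0.047 at the locus, and fork to -0.025 without control replicate 1. Leaving out any single profile kept the sign of the gene body difference at 23 of the 36 genes, and of the locus difference at 24. These counts include the 10 lower and 8 higher gene bodies without overlap, and the 11 and 9 such loci, where the sign could not turn. No share over all genes was set beside them. The runs in which the groups did not overlap reached 100 kb at 7 members, against 24.6% of all genes, and 200 kb at 4 (Gmnn, Mcm2, Gins4 and Topbp1), against 14.2%.

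Control replicates differed more than auxin replicates at these genes, with a median gap of 0.33 against 0.15, and over all genes 0.26 against 0.22. Over all genes with a control score above 3, the median control gap was 0.40, and between 0.5 and 2 it was 0.20. The part of this spread in the missing calls was not tested.

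The wider pathway was described with 44 other genes, of polymerases, clamp loaders, further fork factors and S-phase control. Of these, 40 (90.9%) were early in control. None passed in limma, over gene bodies or loci, and 6 (13.6%) had an unadjusted p under 0.05 in each fit, against 17.1% of all gene bodies and 22.2% of all loci. Both auxin profiles were lower at 9 and higher at 8, against the shares of 25.9% and 23.9% over all genes. The largest gene body difference was at Pole3 (1 window), the gene of a histone-fold subunit of DNA polymerase epsilon, which scored 3.66 and 2.64 in control and 2.08 and 1.71 with auxin. It differed by -1.25 ± 0.35 (SE; limma adjusted p = 0.184), and by -0.74 without control replicate 1. Pole2, another subunit of the same enzyme, scored 2.38 and 3.04 against 1.85 and 1.62 with auxin, a difference of -0.98 ± 0.27 (limma adjusted p = 0.183). At the locus Pole3 differed by -0.87 (limma adjusted p = 0.0632), less than Pole2 at -0.91 (limma adjusted p = 0.0539). The catalytic gene Pole differed by 0.088 and Pole4 by -0.034. Ccne1, the cyclin E1 gene, scored 3.15 and 3.52 in control and 2.38 and 2.77 with auxin, a difference of -0.76 ± 0.24 (limma adjusted p = 0.217). With a trended, robust variance in limma at the locus, 3 of the 44 were called, all later, against 7.86% of loci later and 5.5% earlier: Pole2, Pole3 and Mcm9, a helicase gene related to the ring. The same 3 were called within 100 kb (6.79% later and 4.81% earlier over all loci), and Pole2 and Pole3 also over gene bodies with that variance (5.3% of genes) and at the locus with a replicate block (5.1%). Without control replicate 1, Pole2, Mcm9 and Ccne1 were called later at the locus, and without control replicate 2, Pole3 later and the clamp loader gene Rfc5 earlier (6.14% and 7.68% of loci).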

How the data were processed

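The authors deposited timing scores per window, quantile normalized across profiles, as their names say, and once sorted the 4 columns hold the same values. The submitters' processing notes name Bowtie2, SAMtools, bedtools and mm10. The score's formula, smoothing and filters, and tool versions, are not given in the labels or files used. Columns were matched to groups and replicates by name. Gene coordinates came from RefSeq (GRCm38.p6). A window was taken as the 6 kb from its position, and a gene without one took the nearest within 50 kb (1064 genes). Loci needed 5 windows. Auxin and control were compared with limma 3.58.1 in R 4.3.3 (lmFit, eBayes, treatment only, 2 residual degrees of freedom, Benjamini-Hochberg over all genes), tested on simulated data. SEs and intervals use limma's moderated variance. Runs of windows were broken by gaps over 30 kb.

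The members, role lists and tests were chosen with earlier results of these data known. The rule for genes named with values took Rif1, the 4 largest differences and the 2 highest and 2 lowest scores (mean of the 4 profiles) of each role group, called members, members within 250 kb of a deposited region, and the 3 largest differences and up to 5 called genes of the wider pathway. Other genes were named after their values were seen.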

Additional observations from a re-analysis of the deposited data

How the results depend on the processing

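Depth is unknown, so counting error could not be set. In limma, the count of called gene bodies was 1118 with a trended, robust variance (1 member), and 0 to 1 when single profiles were left out, the 1 without control replicate 1. Locus calls were 0 with loci of at least 1 window, 1038 with a replicate block, 2721 trended and robust and 2364 within 100 kb (members 1, 6 and 5 in the last 3). Leaving out profiles gave 0 to 1564 locus calls: 0 without an auxin profile, and 1250 or 1564 when control replicate 1 or 2 was dropped. Members called then ranged from 0 to 3 (Gmnn and Gins4, or Mcm2, Fen1 and Timeless), where the lone profile of a group is assumed to vary like the others. Under the replicate block at the locus the called member was Gmnn (limma adjusted p = 0.0383). Same-numbered profiles deviated together only weakly (correlation of 0.10 over gene bodies and 0.054 over loci), and the labels give the numbers no shared batch, so they were not taken as pairs. Leaving out single profiles moved the licensing median difference between -0.10 and 0.29 the firing one between -0.052 and 0.12 and the fork one between -0.025 and 0.16. The firing median was -0.047 at the locus, and the fork median 0.23 with at least 3 windows. The licensing control median was 1.33 with at least 3 windows. It was 1.50 and 1.91, and the fork one 2.90 and 3.00, from single control profiles. Of 153 recomputed differences of 23 named genes, 9 at 6 genes turned sign: Orc4 (-0.012 at the start site window; -0.093 to 0.36 leaving out profiles), Recql4 (-0.097 at the locus; -0.10 to 0.26), Topbp1 (-0.052 at the start site window), Cdc6 (-0.64 to 0.44), Mtbp (-0.13 to 0.075) and Timeless (-0.42 to 0.89). The 153 include each gene's gene body difference under the replicate block. In this balanced design that difference equals the main one, so it could not turn sign. None of the 153 passed the threshold. They do not include the trended, robust fits or the span of 100 kb on each side. Nor do they include the locus fits with a replicate block or without a profile. Some named genes were called in those fits. The causes were not tested.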

Other observations

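Single windows near the members reached larger differences than the means over their gene bodies. The largest of many windows exceeds such a mean almost by construction, so this is no trait of the genes named here. In single windows within 500 kb of a gene's midpoint, the difference between group means reached -1.27 at 91 kb from Fen1, the flap endonuclease gene, against -0.39 over its gene body, and all 10 protein-coding genes within 250 kb of Fen1 scored lower with auxin. Near Gins1 the difference reached 1.15 at 295 kb, against 0.42 over the gene, and 8 of 9 genes within 250 kb were higher. Near Mcm7, which overlapped between groups, all 21 genes within 250 kb scored higher with auxin. Neighbouring genes can share windows and are not independent. These were picked after their values were seen, and no test was made of them.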
